A study of Mus musculus with 8 samples.

Results

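The 8 genes described here, Tbx1, Tbx2, Tbx3, Tbx4, Tbx5, Tbx15, Tbx18 and Tbx20, encode the T-box transcription factors of the heart and pharynx. They were chosen by symbol among the 20701 gene symbols of the deposited RNA-Seq table, and each was represented by its RefSeq transcript with the highest summed read count. The other 9 T-box genes of the table served as a comparison. RNA-Seq was performed on pharyngeal mesoderm and hearts, dissected together at E8.75 (6 somites), of C57BL/6 embryos that were either wild-type or Isl1-/-, the genotype of the Isl1 knockout. Each group held 4 embryos, and every library was made from 100 ng of RNA of 1 embryo. The question was how the loss of Isl1, a LIM-homeodomain factor of second heart field progenitors, related to the level of each factor. The libraries were bulk tissue with no separation of heart from pharynx. As the molecule, the labels name polyA RNA, except in knockout embryo 2, where they name total RNA.

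T-box factors share a DNA-binding domain, the T-box, and act as activators or repressors according to the member and its partners. In the early heart, Tbx5 marks the first heart field and the future left ventricle and atria, Tbx20 acts throughout the myocardium and endocardium, and Tbx1 keeps pharyngeal and second heart field progenitors dividing. Tbx2 and Tbx3 repress chamber genes in the atrioventricular canal and conduction tissue, Tbx18 marks the sinus venosus, where blood returns to the heart, and the proepicardium, and Tbx4 and Tbx15 are known mainly from limb, allantois and skin or skeletal mesenchyme.

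Isl1 was read in every library first. Wild-type embryos 1 to 4 had 9.72, 9.76, 26.9 and 23.3 CPM (counts per 1e6 reads, scaled by the trimmed mean of M values), and the knockout embryos had 2.32, 2.16, 1.78 and 2.40 CPM in the same order of numbers. The groups did not overlap, and the log2 fold change, here always knockout minus wild-type, was -3.00 (SE 0.36, edgeR FDR 0.0041). Libraries held between 18916452 and 26153039 counted reads. Wild-type embryo 3 stood apart from the other wild-type embryos, with the lowest summed level of primitive erythroid markers (370 CPM against 1175 to 2367 CPM). Its summed level of heart muscle markers was also the lowest of that group (2964 CPM against 4073 to 4455 CPM). Some of the values that change their call or shift without this embryo are therefore also given without it. Each of the 11 heart muscle markers, such as Tnnt2, Myh6 and Myl7, was detected in all libraries, and 8 of them were lower in knockout embryos at an FDR below 0.05. Their summed level was 2964 to 4455 CPM in wild-type and 1591 to 2408 CPM in knockout embryos, with no overlap.

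The genes lie on 5 chromosomes of the mm9 build, and 2 pairs of them are close neighbours. All are protein-coding genes, and the values below are sums over their exons, untranslated parts included. On chromosome 5, Tbx3 (chr5:120120678-120134733, plus strand) precedes Tbx5 (chr5:120284672-120335227, plus strand) by 149938 bases without a protein-coding gene between them. On chromosome 11, Tbx2 (chr11:85646053-85655450, plus strand) precedes Tbx4 (chr11:85699924-85729599, plus strand) by 44473 bases, with 1 protein-coding gene between them. Chromosome 9 carries Tbx20 (chr9:24527648-24578746, minus strand) and Tbx18 (chr9:87597635-87626095, minus strand), which are not neighbours. Tbx1 lies at chr16:18581806-18588113 on the minus strand and Tbx15 at chr3:99044304-99158182 on the plus strand.

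RefSeq sequences before a transcription start (build GRCm38.p6, not the build of the counts) were matched for 4 of the 8 genes, Tbx1, Tbx4, Tbx18 and Tbx20. The 250 bases before the start are shown, 5′ to 3′ on the gene's strand, for the 3 of them that passed the filter on low counts, because their values differ: Tbx20 was lower in the knockout, Tbx18 had a fold change near 0 and Tbx1 had the largest positive one. Capitals mark the 4 letters TAAT, the core bound by many homeodomain proteins, and the 5 letters AAGTG, a core bound by Nkx2-5, on either strand. Tbx1 has 2 starts in the table. All these stretches are on the minus strand, at chr9:24774304-24774553 (Tbx20), chr9:87731261-87731510 (Tbx18), chr16:18588900-18589149 (first Tbx1 stretch) and chr16:18590672-18590921 (second Tbx1 stretch).
Tbx20: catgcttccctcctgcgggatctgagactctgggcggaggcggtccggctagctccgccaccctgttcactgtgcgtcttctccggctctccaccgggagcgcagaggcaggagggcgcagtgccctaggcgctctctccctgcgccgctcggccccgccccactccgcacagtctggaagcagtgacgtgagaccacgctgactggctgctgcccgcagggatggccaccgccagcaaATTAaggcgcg
Tbx18: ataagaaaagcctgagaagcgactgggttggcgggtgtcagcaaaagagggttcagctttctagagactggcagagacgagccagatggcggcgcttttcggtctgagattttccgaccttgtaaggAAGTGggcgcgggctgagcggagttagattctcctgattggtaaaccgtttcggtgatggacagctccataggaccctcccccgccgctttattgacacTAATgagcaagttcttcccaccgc
Tbx1, first stretch: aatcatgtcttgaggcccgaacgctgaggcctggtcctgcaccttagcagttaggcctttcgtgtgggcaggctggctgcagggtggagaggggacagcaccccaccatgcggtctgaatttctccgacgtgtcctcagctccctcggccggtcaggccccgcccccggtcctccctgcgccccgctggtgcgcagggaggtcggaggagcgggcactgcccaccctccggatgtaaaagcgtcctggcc
Tbx1, second stretch: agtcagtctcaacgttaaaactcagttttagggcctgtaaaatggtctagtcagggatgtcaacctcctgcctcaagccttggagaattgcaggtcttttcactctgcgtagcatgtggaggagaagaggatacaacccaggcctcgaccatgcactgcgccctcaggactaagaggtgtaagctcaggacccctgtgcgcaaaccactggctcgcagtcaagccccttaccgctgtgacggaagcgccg
In Tbx20, TAAT was found once, on the reverse strand, where it begins 11 bases before the start and reads ATTA. In Tbx18, TAAT began 24 bases and AAGTG 123 bases before the start, without overlap. Neither Tbx1 stretch held TAAT or AAGTG, and none of the 4 stretches held GGTGTG, the core of a T-box site. Of all 32851 stretches of this length in the table, 54.9% held TAAT, 40.7% AAGTG and 16.3% GGTGTG on either strand, so these matches describe the letters and no more.

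Among the 8 factors, Tbx20 and Tbx5 were lower in Isl1 knockout embryos, at 45.6% and 44.5% of their wild-type means. The other 6 did not pass the test, and Tbx1 had the largest positive fold change of the group, with widely spread values. Of the 8, 7 passed the filter on low counts and were fitted, 2 passed an FDR of 0.05 and both were lower. Over all 14075 genes fitted, 0.973% passed that FDR in either direction and 0.867% passed it as lower. At an unadjusted p below 0.05, 4 of the 7 fitted factors were counted, beside 17.4% of all genes. In 2 of the 7 the wild-type and knockout CPM did not overlap, beside 10.3% of all genes in either direction, 6.33% lower and 3.96% higher. DESeq2 called the same 2 factors, beside 5.24% of all genes. The libraries were bulk tissue, so fewer cells of a type and less RNA per cell cannot be told apart in any of these values.

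**Figure D1:**
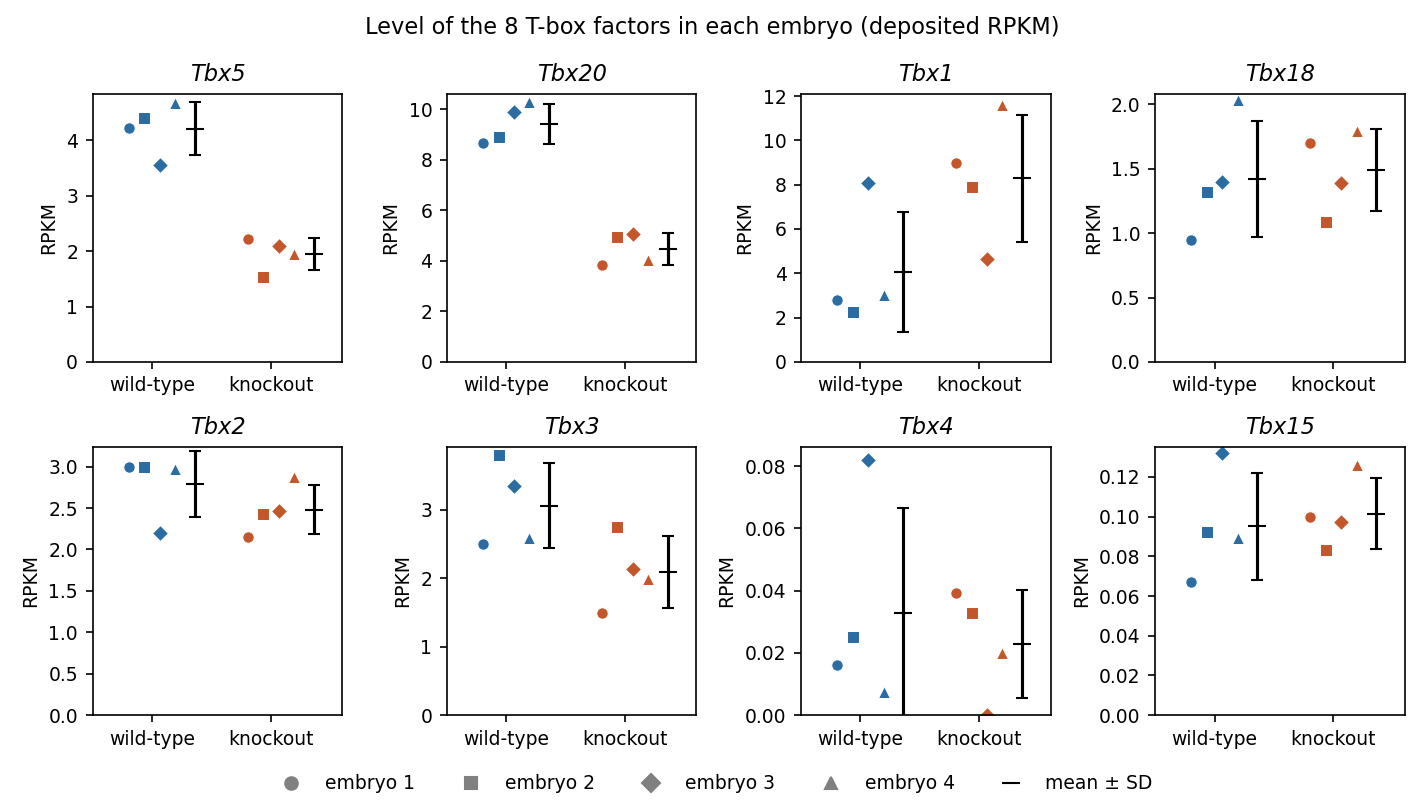
Deposited RPKM (reads per kilobase of transcript per 1e6 reads, linear axis from 0) of the 8 factors in the 4 wild-type (blue) and 4 knockout (orange) embryos. Each symbol is 1 embryo, numbered within its genotype, and black bars are mean ± SD. The groups separate for Tbx5 (3.55 to 4.67 against 1.54 to 2.22) and Tbx20 (8.65 to 10.3 against 3.85 to 5.06), while wild-type embryo 3 lies among the knockout embryos for Tbx1.

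Tbx5, the first heart field factor whose loss leaves the atria and left ventricle hypoplastic, was read as transcript NM_011537. The wild-type embryos 1 to 4 had 692, 686, 567 and 809 counts, or 28.9, 30.4, 23.9 and 30.8 CPM. The knockout embryos 1 to 4 had 369, 245, 261 and 257 counts, or 14.3, 10.2, 13.6 and 12.6 CPM. Every knockout embryo was below every wild-type embryo, with knockout embryo 2 the lowest and wild-type embryo 3 the lowest of its group. The mean fell from 28.5 ± 3.17 to 12.7 ± 1.81 CPM (SD, n = 4 each), which is 44.5% of the wild-type mean. The log2 fold change was -1.17 (SE 0.13, 95% interval -1.46 to -0.88, edgeR FDR 0.00304). It was -1.25 without wild-type embryo 3 (FDR 0.00239).

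Tbx20, which acts across the heart tube and restrains Tbx2 in the chambers, was read as transcript NM_194263. Wild-type embryos 1 to 4 had 2322, 2263, 2577 and 2930 counts, or 96.9, 100, 109 and 111 CPM. Knockout embryos 1 to 4 had 1048, 1285, 1033 and 868 counts, or 40.5, 53.3, 54.0 and 42.5 CPM. The groups were far apart, and wild-type embryo 3 sat within its group here. The mean fell from 104 ± 6.81 to 47.6 ± 7.06 CPM (SD, n = 4 each), 45.6% of the wild-type mean, with a log2 fold change of -1.13 (SE 0.10, 95% interval -1.37 to -0.90, edgeR FDR 0.00186). The table held 3 entries for Tbx20, whose reads overlap. The count of the short entry NM_020496 was 21.3%, 21.2%, 16.6% and 19.6% of that of NM_194263 in wild-type embryos 1 to 4, while the knockout embryos had 21.0%, 20.7%, 21.0% and 17.6%. These shares overlapped between genotypes (exact two-sided permutation p = 0.7143), and the short entry taken alone had a log2 fold change of -1.09 (FDR 0.00704).

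Between genotypes, the lower level of both factors went along with the lower level of heart muscle markers given above. Within the wild-type group this did not hold for Tbx20, since embryo 3 had the lowest summed marker level (2964 CPM) but 109 CPM of Tbx20. With the mean log2 CPM of the markers as a covariate, the log2 fold change of Tbx5 moved from -1.17 to -0.65 (SE 0.18, FDR 0.129). That of Tbx20 did not shrink, going from -1.13 to -1.24 (SE 0.20, FDR 0.0592), and neither factor passed. Against a minimum change of 1.5-fold, Tbx20 passed (FDR 0.0485) and Tbx5 did not (FDR 0.0824). The part of heart muscle content in the values of Tbx5 and Tbx20 was not tested beyond this fit, whose covariate was itself lower in the knockout.

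Tbx1, the pharyngeal and second heart field factor whose human counterpart lies in the region deleted in DiGeorge syndrome, was read as transcript NM_001285472. Wild-type embryos 1 to 4 had 216, 165, 606 and 248 counts, or 9.01, 7.32, 25.5 and 9.43 CPM. Knockout embryos 1 to 4 had 702, 593, 272 and 716 counts, or 27.1, 24.6, 14.2 and 35.0 CPM. Wild-type embryo 3 lay within the knockout range, above knockout embryos 2 and 3, so the groups overlapped. The other 3 wild-type embryos were all below the lowest knockout embryo, number 3. Means were 12.8 ± 8.52 and 25.2 ± 8.60 CPM (SD, n = 4 each). The log2 fold change of 0.98 (SE 0.40, 95% interval 0.08 to 1.87) did not pass (edgeR FDR 0.248), though its unadjusted p was below 0.05. Without wild-type embryo 3 it was 1.56 (SE 0.27, FDR 0.0216), which passed, and 3 of the 7 fitted factors then passed. That embryo had the highest Tbx1 of its group, so leaving it out raises the fold change by construction, and this fit is no separate support. With any other library left out, Tbx1 did not pass (FDR 0.217 to 0.494). Wild-type embryo 3 also had the highest score of any embryo for pharyngeal and second heart field mesoderm markers (0.56) and for pharyngeal and foregut endoderm markers (0.53), each the mean log2 CPM of the list centred on the 8 libraries. Over all embryos those 2 scores ran from -0.45 to 0.56 and from -0.20 to 0.53, and overlapped between genotypes. The mesoderm list includes Isl1, the gene knocked out (log2 fold change -3.00), which was highest in wild-type embryo 3 (26.9 CPM). Its score therefore holds the genotype itself and does not measure tissue content alone. The part of these 2 scores in the Tbx1 values was not tested. With the heart muscle covariate, the log2 fold change of Tbx1 turned to -0.72 (FDR 0.400).

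**Figure D2:**
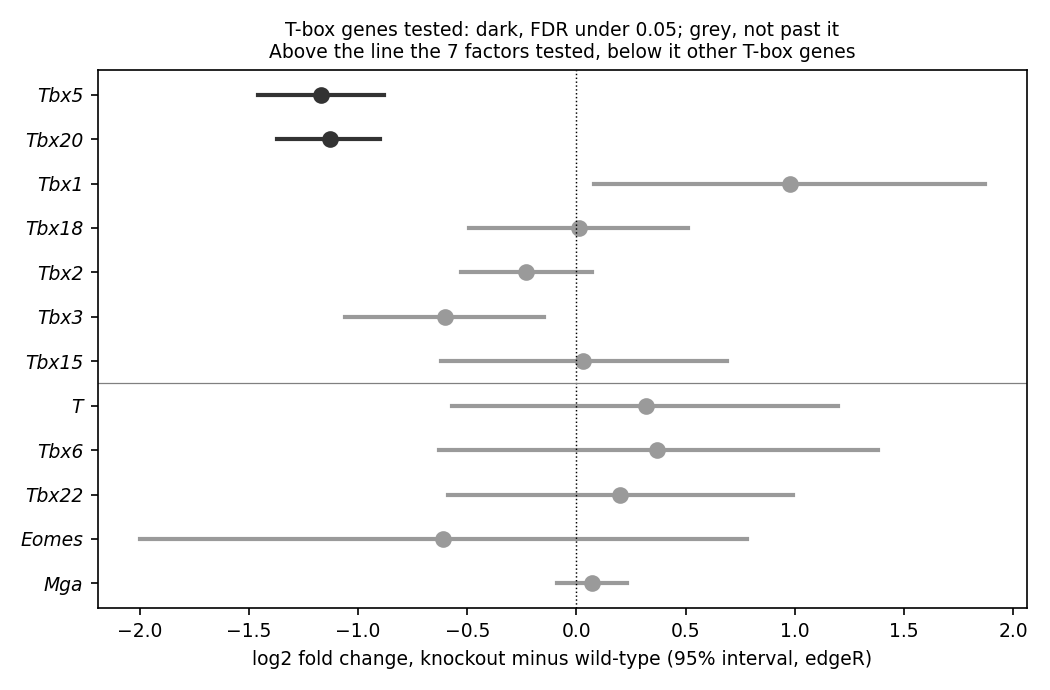
Log2 fold change (horizontal axis, knockout minus wild-type) with its 95% interval for the 7 factors fitted and, below the grey line, 5 other T-box genes. Dark marks passed an FDR of 0.05. Tbx5 (-1.17) and Tbx20 (-1.13) lie on the negative side with short intervals, Tbx1 (0.98) on the positive side with a long one, Tbx3 (-0.60) lies below 0, and the intervals of the rest include 0.

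Tbx3, a repressor of chamber genes in the atrioventricular canal and later in the conduction system, had 20.8, 31.8, 27.3 and 20.6 CPM in wild-type embryos 1 to 4. In knockout embryos 1 to 4 it had 11.6, 22.1, 16.9 and 15.5 CPM. Knockout embryo 2 was above wild-type embryos 1 and 4, and the other knockout embryos were below all wild-type embryos. The log2 fold change of -0.60 (SE 0.20, 95% interval -1.06 to -0.15) did not pass (edgeR FDR 0.184), though its unadjusted p was below 0.05. By DESeq2 the adjusted p was 0.0547.

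Its paralogue Tbx2, which also represses chamber genes and lies near Tbx4, had 18.6, 18.8, 13.4 and 17.7 CPM in wild-type embryos and 12.5, 14.6, 14.6 and 16.7 CPM in knockout embryos. The low wild-type value was again that of embryo 3, and it fell inside the knockout range. The log2 fold change was -0.23 (SE 0.14, 95% interval -0.53 to 0.07, edgeR FDR 0.415). Without wild-type embryo 3 it was -0.33 (FDR 0.122).

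Tbx18, the sinus venosus and proepicardial factor, had levels of 7.68, 10.9, 11.2 and 15.9 CPM in the wild-type group, ordered by embryo number. In the knockout group they were 13.0, 8.54, 10.8 and 13.8 CPM. The range of the knockout embryos lay inside that of the wild-type embryos. The log2 fold change was 0.01 (SE 0.22, 95% interval -0.49 to 0.51, edgeR FDR 0.984). An interval of this width does not show that the level was equal. With Y-linked genes as a covariate, the sign turned (-0.30, FDR 0.473).

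Tbx15, known from the mesenchyme of skin and skeleton, was near the detection limit, with 10, 13, 19 and 14 counts in wild-type embryos and 15, 12, 11 and 15 counts in knockout embryos. Its log2 fold change was 0.03 (SE 0.29, 95% interval -0.62 to 0.69, edgeR FDR 0.965). Tbx4, the limb and allantois paralogue of Tbx5, had 2, 3, 10 and 1 counts in wild-type embryos and 5, 4, 0 and 2 counts in knockout embryos, and did not pass the filter on low counts. A count of 0 in knockout embryo 3 allows up to 3 counts in that library. At this depth a difference in Tbx4 was not detectable.

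Levels between genes were compared per length, as deposited RPKM. In wild-type embryos Tbx20 was the most abundant of the 8 factors (9.44 ± 0.80 RPKM, SD, n = 4), and its range did not touch that of the next. Tbx5 (4.21 ± 0.475), Tbx1 (4.05 ± 2.71), Tbx3 (3.06 ± 0.625) and Tbx2 (2.79 ± 0.393) followed, and neighbours in that order overlapped. The place of Tbx1 rests on wild-type embryo 3, without which, in a comparison added after seeing the data, its mean was 2.70 ± 0.404 RPKM (SD, n = 3), below Tbx2 (2.99 ± 0.0203) and Tbx3 (2.96 ± 0.726). Tbx18 (1.43 ± 0.45) was lower than these without overlap to Tbx2, and Tbx15 (0.0951 ± 0.0267) and Tbx4 (0.0327 ± 0.0337) were the lowest and overlapped each other.

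In knockout embryos Tbx1 had the highest mean (8.27 ± 2.87 RPKM), although its range overlapped that of Tbx20 (4.47 ± 0.614). Tbx2 (2.48 ± 0.297), Tbx3 (2.09 ± 0.523), Tbx5 (1.95 ± 0.296) and Tbx18 (1.49 ± 0.32) came next, and each overlapped its neighbour in the order. Tbx5 thus followed Tbx20 in the wild-type order and came after Tbx3 in the knockout order. Of the summed RPKM of the 8 factors, Tbx20 made up 37.7 ± 2.49% in wild-type and 21.8 ± 5.25% in knockout embryos. Tbx5 made up 17.0 ± 3.10% and 9.48 ± 2.09%, and Tbx1 15.5 ± 8.54% and 38.8 ± 9.43%. The Tbx1 share was 28.2% in wild-type embryo 3, and its group otherwise ran from 9.48% to 12.6%. The summed level itself was 22.2 to 28.7 RPKM in wild-type and 17.9 to 24.3 RPKM in knockout embryos, with overlap.

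Factors of different heart regions were then set against each other within each embryo, as the log2 ratio of their counts with 0.5 added, in which library scaling cancels. Over 8 pairs, none passed an exact two-sided permutation test after adjustment, and 0.0286 is the smallest unadjusted p that 4 against 4 embryos can give. An adjusted p below 0.05 would have needed most of the 8 pairs at that value, so a single separated pair could not pass. The log2 ratio of Tbx20 to Tbx1 was 3.42, 3.77, 2.09 and 3.56 in the wild-type group and 0.58, 1.12, 1.92 and 0.28 in the knockout group. The groups did not overlap, though wild-type embryo 3 and knockout embryo 3 nearly met, and the difference was -2.24 (SE 0.53, exact p = 0.0286, adjusted 0.1143). The log2 ratio of Tbx5 to Tbx18, first heart field against sinus venosus, was 1.91, 1.48, 1.09 and 0.95 in wild-type and 0.14, 0.25, 0.34 and -0.13 in knockout embryos. Here too the groups did not overlap, and the difference was -1.21 (SE 0.24, exact p = 0.0286, adjusted 0.1143).

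The log2 ratio of Tbx5 to Tbx1, first against second heart field, was 1.68, 2.05, -0.10 and 1.70 in wild-type and -0.93, -1.27, -0.06 and -1.48 in knockout embryos. Wild-type embryo 3 lay just below knockout embryo 3, so the groups overlapped, with a difference of -2.27 (SE 0.58, exact p = 0.0571, adjusted 0.1524). Without wild-type embryo 3 the difference was -2.75 (adjusted exact p = 0.0762). The ratio of Tbx18 to Tbx1 differed by -1.06 (SE 0.51, exact p = 0.0857, adjusted 0.1714). For Tbx5 to Tbx20, the 2 factors that were lower, the difference was -0.03 (SE 0.22, exact p = 0.9143). Among paralogues, the difference was -0.39 (SE 0.27, exact p = 0.2000) for Tbx3 to Tbx2 and -0.03 (SE 0.24, exact p = 0.8571) for Tbx18 to Tbx15. That for Tbx5 to Tbx4 (-0.75, SE 1.02, exact p = 0.4857) rests on at most 10 Tbx4 counts per library.

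**Figure D3:**
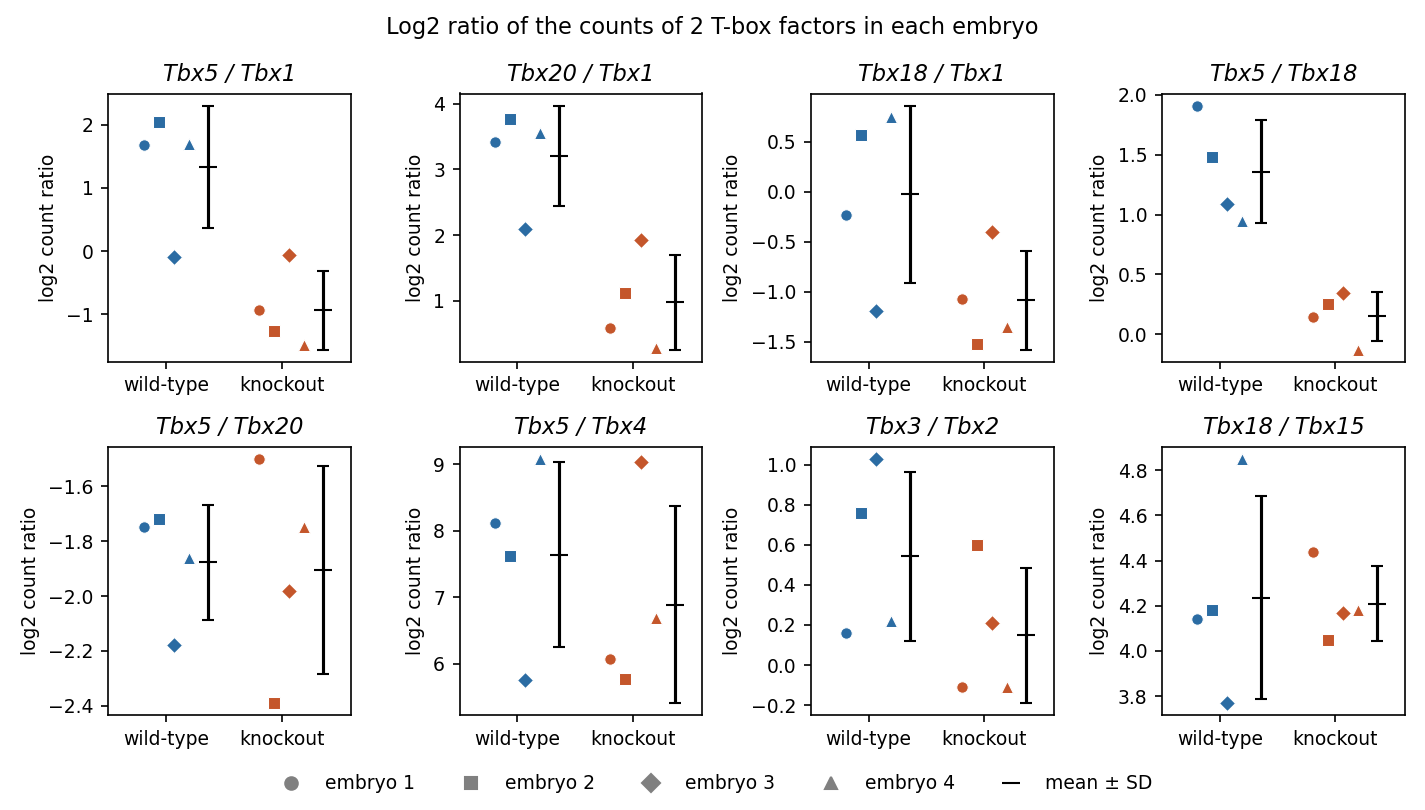
Log2 ratio of the counts of 2 factors (vertical axes, 0.5 added to each count, not starting at 0) in the 4 wild-type (blue) and 4 knockout (orange) embryos. Each symbol is 1 embryo and black bars are mean ± SD. The genotypes do not overlap for Tbx20 to Tbx1 and for Tbx5 to Tbx18, and overlap in the other 6 pairs, including Tbx5 to Tbx20.

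Each factor was also set against the heart muscle markers of its own embryo, as its log2 CPM minus the mean log2 CPM of the 11 markers. These transcripts were themselves lower in the knockout, and Nppa among them is also on the list of Tbx5 targets used below. The scale therefore does not measure or correct for the amount of muscle tissue. On this scale Tbx20 was -1.20, -1.11, -0.24 and -0.91 in wild-type and -1.35, -0.56, -1.08 and -1.12 in knockout embryos, and Tbx5 was -2.94, -2.83, -2.43 and -2.76 against -2.85, -2.95, -3.06 and -2.87. Both overlapped between genotypes, with differences of -0.16 (SE 0.27, exact p = 0.5714) for Tbx20 and -0.19 (SE 0.12, exact p = 0.1143) for Tbx5. Tbx2 was -3.58, -3.53, -3.26 and -3.56 in wild-type and -3.04, -2.43, -2.97 and -2.46 in knockout embryos. Tbx18 was -4.85, -4.32, -3.52 and -3.71 against -2.99, -3.20, -3.41 and -2.74. For both, all knockout embryos were above all wild-type embryos, with differences of 0.76 (SE 0.18) and 1.02 (SE 0.33), each at exact p = 0.0286 and 0.1000 after adjustment over 7 factors. Relative to the markers, the difference was 2.08 (SE 0.69, exact p = 0.0571) for Tbx1, 1.04 (SE 0.39, exact p = 0.0857) for Tbx15 and 0.36 (SE 0.39, exact p = 0.4000) for Tbx3. Without wild-type embryo 3, the differences were 2.66 for Tbx1, 1.39 for Tbx15, 0.60 for Tbx3, 0.83 for Tbx2, 1.21 for Tbx18, -0.09 for Tbx5 and 0.05 for Tbx20, and none had an adjusted exact p below 0.05.

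**Figure D4:**
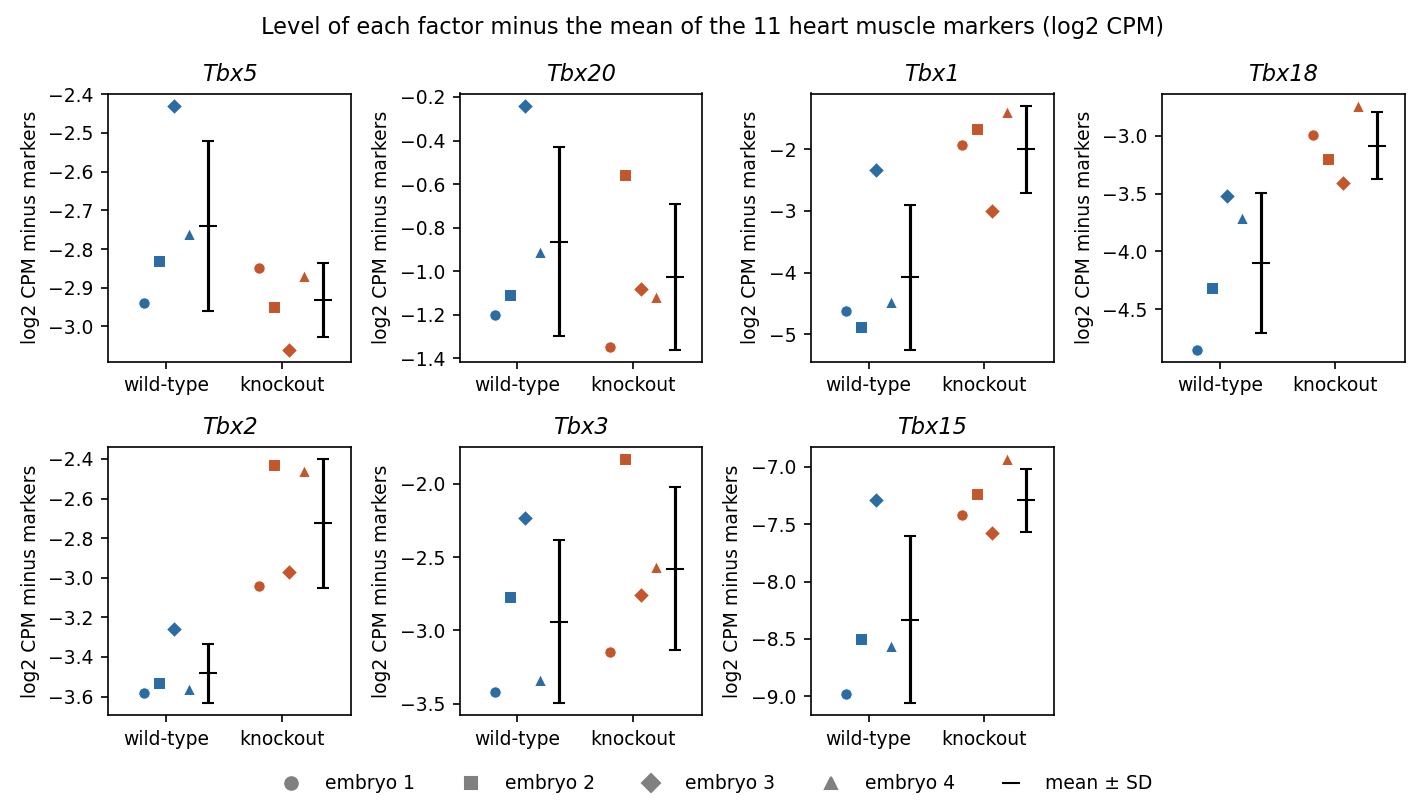
Log2 CPM of each of the 7 fitted factors minus the mean log2 CPM of the 11 heart muscle markers (vertical axes, not starting at 0), by embryo, in wild-type (blue) and knockout (orange), with mean ± SD in black. Tbx5 and Tbx20 overlap between genotypes, with differences of -0.19 and -0.16, whereas Tbx2 and Tbx18 do not overlap. The markers were themselves lower in the knockout, which raises every factor on this scale.

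The other T-box genes gave no call. Of 9, 5 were fitted and none passed an FDR of 0.05 in edgeR, none had an unadjusted p below 0.05, and none passed in DESeq2, which gave Tbx22 no adjusted p. Mga, a large factor that pairs with Max, was the most abundant (317 ± 26.1 against 333 ± 18.8 CPM, log2 fold change 0.07, SE 0.07). T, or brachyury, the factor of early mesoderm, had 3.63, 5.63, 15.2 and 4.71 CPM in the wild-type and 7.19, 8.50, 10.8 and 9.89 CPM in knockout embryos. Wild-type embryo 3 was again the high one, and the log2 fold change of T was 0.32 (SE 0.40, FDR 0.718) with it and 0.96 (SE 0.20, FDR 0.038) without it. Tbx6 (0.37, SE 0.45), Tbx22 (0.20, SE 0.35) and Eomes (-0.61, SE 0.62) had log2 fold changes smaller than their SE, at group means under 1 CPM. Tbx10, Tbx19, Tbx21 and Tbr1 did not pass the filter on low counts.

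Among known partners and co-regulators of T-box factors, 5 of the 16 genes fitted were lower in the knockout at an FDR below 0.05 and none was higher. None of the 16 was higher at an unadjusted p below 0.05 or in DESeq2 either. Those lower were Nkx2-5, the homeodomain partner of Tbx5 and Tbx20 (log2 fold change -1.40, SE 0.13, FDR 0.00186), and the zinc finger partners Gata5 (-1.03, SE 0.12, FDR 0.0032) and Gata6 (-0.69, SE 0.12, FDR 0.0278). Mef2c, a MADS-box partner, and Smarcd3, the Baf60c subunit of the SWI/SNF remodelling complex, were also lower (-0.73, SE 0.11, FDR 0.00985 and -0.66, SE 0.07, FDR 0.00279). Smarcd3 was tightly grouped, at 36.5 to 40.5 CPM in wild-type and 23.5 to 24.8 CPM in knockout embryos. Gata4, named after its values were seen, missed the threshold in this fit (-0.63, SE 0.13, FDR 0.0532), with no overlap between groups. It passed without wild-type embryo 3 (-0.69, SE 0.12, FDR 0.025) and in DESeq2 (adjusted p 0.000112). The median log2 fold change of the list was -0.09, beside 0.01 over all genes fitted.

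Of 10 genes known to be activated by Tbx5 in the heart, 2 were lower at an FDR below 0.05 and none was higher (1 was at an unadjusted p below 0.05, none in DESeq2), and the median of the list was -0.38. Both that passed, Ryr2 (-0.96, SE 0.18, FDR 0.0384) and Atp2a2 (-0.39, SE 0.05, FDR 0.00669), handle calcium in the sarcoplasmic reticulum. Atp2a2 was at 686 to 733 CPM in wild-type and 522 to 549 CPM in knockout embryos. Nppa, the natriuretic peptide gene, named after its values were seen, had 22.7, 20.2, 3.20 and 19.3 CPM in wild-type and 9.90, 5.06, 5.91 and 7.29 CPM in knockout embryos. Its log2 fold change was -1.21 (SE 0.48, FDR 0.238), and -1.55 (SE 0.21, FDR 0.00734) without wild-type embryo 3, the one low wild-type library. Without that embryo 5 of the 10 genes passed, all lower. The count was 1 when wild-type embryo 1, 2 or 4 or knockout embryo 1 or 4 was left out.

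Of 10 chamber genes known to be repressed by Tbx2 and Tbx3, some of which are also on the list of Tbx5 targets, all had a negative fold change, with a median of -0.60. At an FDR below 0.05, 1 was lower, Smpx, a small muscle protein (-1.22, SE 0.18, FDR 0.0113), and 4 were without wild-type embryo 3. Without wild-type embryo 1, and without knockout embryo 4, none of the chamber genes passed. Heart muscle markers were lower in the same embryos, and with their mean as a covariate no gene of either list passed, down from 2 of the Tbx5 targets and 1 of the chamber genes. That covariate separated the genotypes without overlap, and calls over all genes fell from 137 to 12 with it. Nppa, on both lists, is also 1 of its 11 markers. The part of muscle content in the lost calls was not tested. Of 10 regulators of the atrioventricular canal, none passed in edgeR, 2 had an unadjusted p below 0.05 and 1 passed in DESeq2, and the median was -0.07. Its 2 most abundant genes were Bmpr1a, a Bmp receptor (-0.05, SE 0.07, FDR 0.766), and Mycn, a driver of proliferation (0.37, SE 0.15, FDR 0.243). Without wild-type embryo 3, Mycn passed as higher (0.53, SE 0.11, FDR 0.0383), the 1 call of the list in that fit.

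Of 10 sinus venosus and proepicardial genes, 2 were lower and none was higher at an FDR below 0.05, at an unadjusted p below 0.05 or in DESeq2, with a median of -0.26. Hcn4, the pacemaker channel, was lower (-1.29, SE 0.12, FDR 0.00186), at 25.2 to 34.8 CPM in wild-type and 11.1 to 13.7 CPM in knockout embryos. Its pattern over the libraries was also among the closest to that of Tbx5, the first heart field factor (correlation 0.988). In bulk tissue its lower level cannot be assigned to the sinus venosus. Wnt2, a ligand of the venous pole, was lower as well (-0.59, SE 0.09, FDR 0.0118). Without knockout embryo 4, 1 of the list passed. Among 15 fitted genes linked to Tbx1 in pharynx and second heart field, none passed in edgeR, and 1 did without wild-type embryo 4. The median was -0.00, with 8 fold changes negative and 7 positive. At an unadjusted p below 0.05, 2 were lower and 1 was higher. DESeq2 called Fgf10 lower (-0.55, adjusted p 0.0499) and Cyp26b1 higher (0.81, adjusted p 0.0202), both named after their values were seen. The 2 most abundant genes of the list were Aldh1a2, which makes retinoic acid (-0.23, SE 0.33, FDR 0.763), and Hes1, a Notch target (0.14, SE 0.15, FDR 0.652). Over the 68 different genes of all 7 lists that were fitted, 10 were lower and none was higher at an FDR below 0.05 in edgeR, and the median was -0.17. At an unadjusted p below 0.05, 3 were higher, and DESeq2 called 1 higher.

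The genes with a pattern most like that of 4 of the factors were found by Pearson's correlation of log2 CPM over the 8 libraries, which reflects in part the shared difference between genotypes and is a description only. For Tbx5 these were Asb2 (0.991), Hcn4 (0.988) and Ldb3 (0.988), with correlations of 0.885, 0.831 and 0.922 of the deviations from genotype means. For Tbx20 they were Fam228a (0.983), Cpeb2 (0.981) and Orc2 (0.976), with 0.786, 0.761 and 0.808 within genotypes. All 3 genes nearest to Tbx5 were lower in the knockout, and of those nearest to Tbx20 only Cpeb2 passed the FDR (-0.97, SE 0.12, FDR 0.00558). For Tbx1 they were Bcl2l2 (0.981), Map3k1 (0.972) and Arhgef40 (0.970), all with log2 fold changes of at most 0.32 that did not pass. For Tbx18 they were Plpp7 (0.969), 4930432K21Rik (0.956) and Agk (0.950). Tbx5 and Tbx20 correlated at 0.90 with each other over the 8 libraries and at -0.42 within genotypes.

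**Figure D5:**
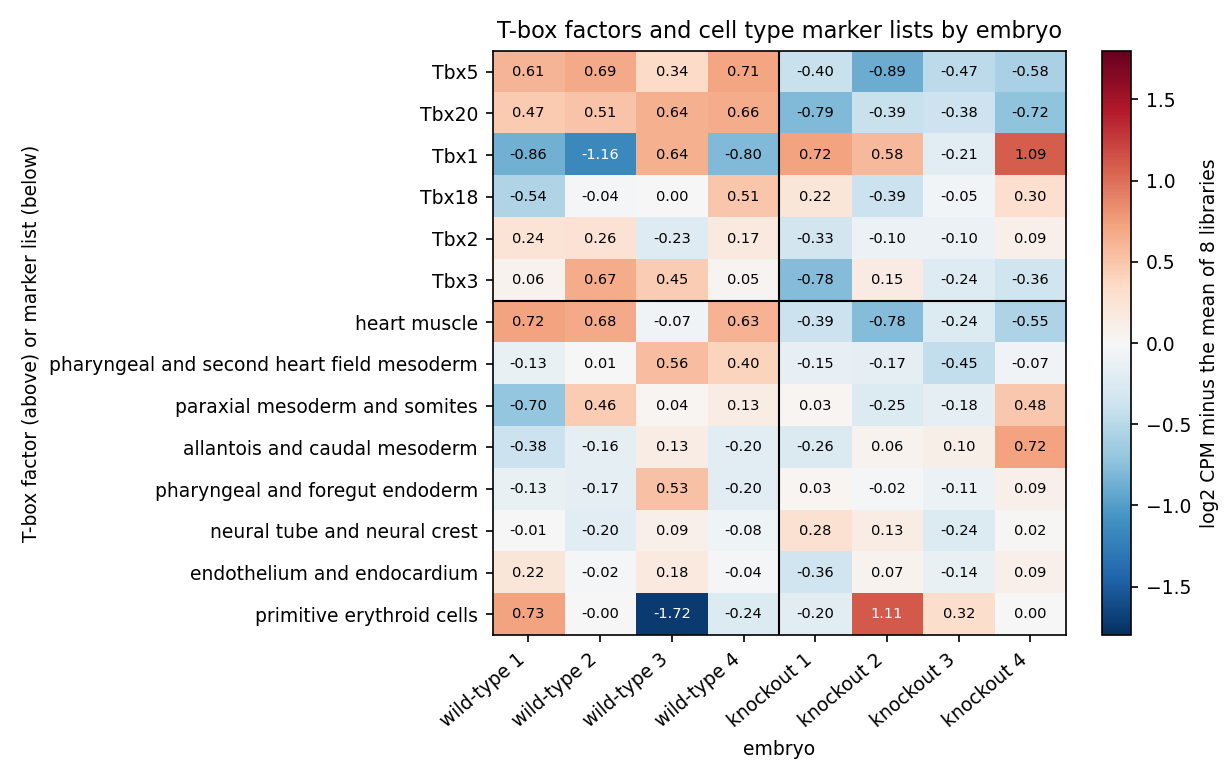
Log2 CPM of 6 of the factors (above the line) and mean log2 CPM of 8 cell type marker lists (below it), each centred on its mean over the 8 libraries, by embryo. Red is above and blue below the mean. Tbx5, Tbx20 and the heart muscle list run from positive in most wild-type embryos to negative in knockout embryos, and wild-type embryo 3 stands out with high Tbx1 (0.64) and low erythroid markers (-1.72).

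The remaining marker lists were set beside the factors in the same way. Apart from heart muscle, and Isl1 itself on the list of pharyngeal and second heart field mesoderm, no gene passed an FDR of 0.05 in the lists of paraxial mesoderm, caudal mesoderm and allantois, pharyngeal and foregut endoderm, neural tube and neural crest, endothelium and endocardium, and primitive erythroid cells. In these lists 3 genes had an unadjusted p below 0.05, and 1 passed in DESeq2. Summed levels overlapped between genotypes in each of them, at 73.1 to 128 against 93.4 to 141 CPM for paraxial mesoderm and at 370 to 2367 against 1258 to 3129 CPM for erythroid cells, for example.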

How the data were processed

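RNA-Seq counts of 4 wild-type and 4 Isl1-/- embryos were used. The authors aligned reads to mm9 by STAR, allowing introns of 20 to 500000 bases, and used HOMER to count exonic reads of both strands per RefSeq transcript, so the deposited counts are raw and antisense or overlapping genes cannot be told apart. Tool versions were not given in the sources used here. The deposited RPKM values were computed by the authors with edgeR, and the deposited length is in bases, with no normalization. The deposited baseMean signal, log2 fold changes, their error and Wald statistic (each a score) and the deposited p-value columns hold the authors' own DESeq2 comparison and were not used.

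Per symbol, the transcript with the highest summed count was kept (31507 entries, 20701 symbols). edgeR 4.0.16 in R 4.3.3 was fitted to 14075 genes (filterByExpr, TMM, quasi-likelihood, genotype as the only term, two-sided), and FDR is the Benjamini-Hochberg adjusted p over all of them. Library totals were 18916452 to 26153039 counts, and reads carried no molecular identifiers, so depth limits cover counting error only. On simulated counts for this comparison (13962 genes fitted, 200 changed), 96.5% of changed genes were recovered. This share was not split by fold change or by count. Recovery at small fold changes or at low counts was not tested. Ratios and values relative to markers were compared by exact permutation over embryos. DESeq2 1.42.0 and limma 3.58.1 served as alternatives. Other alternatives changed the normalization, filter, covariates, threshold, transcript, pseudocount, markers and libraries. The members and gene lists were chosen with earlier results of these data known. Named were the 8 factors, Isl1, every other T-box gene, list genes past the FDR or else the 2 most abundant of a list, and the 3 genes most correlated with Tbx5, Tbx20, Tbx1 and Tbx18. Embryos share only a number across genotypes. The labels name separate embryos, and no 2 libraries held the same counts.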

Additional observations from a re-analysis of the deposited data

Results flagged for a closer look

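Of 46 sets of 4 libraries examined, 3 held an embryo whose gap to its nearest neighbour took up more of the range than Dixon's 95% limit, which chance alone passes in about 1 of 20 such sets. All 3 concern wild-type embryo 3. Its Tbx1 level was 25.5 CPM, while the other wild-type embryos had 7.32 to 9.43 CPM (gap over range 0.884). Relative to heart muscle markers, its Tbx1 value was -2.33 on the log2 scale, while its group otherwise ran from -4.88 to -4.47 (0.836). Its Tbx2 value on that scale was -3.26, against -3.58 to -3.53 (0.843). The 2 values relative to markers share the marker mean of the same embryo, which was the lowest of its group.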

How the results depend on the processing

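Tbx5 and Tbx20 kept their direction and passed the FDR under DESeq2, both other normalizations, no filter, the log2 RPKM scale, the Y-linked covariate, other transcripts of Tbx20 and each left-out library. With the heart muscle covariate none did (0 factors, 0 genes of the pathway lists and 12 genes in all past the FDR, Tbx5 -0.65, Tbx20 -1.24), and Tbx1 (-0.72), Tbx2 (0.16) and Tbx15 (-0.55) turned sign. With the Y-linked covariate Tbx15 (-0.01) and Tbx18 (-0.30) turned sign. Against a 1.5-fold change, 11 genes in all, 2 pathway genes and 1 factor, Tbx20, passed. DESeq2 called 726 genes and 18 pathway genes, against 137 and 10. With the replicate block, 76 genes and 6 pathway genes passed (0 of the Tbx5 targets, against 2), Tbx5 (-1.17, FDR 0.0185) and Tbx20 (-1.14, FDR 0.00676) among all genes tested. For same-numbered embryos, the correlations of their deviations from the genotype means were 0.0991, 0.224, 0.0932 and 0.49, and 1 of 4 numbers was matched best by its own. These values do not settle whether such embryos were paired. The causes of these shifts were not tested.

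Leaving out 1 library gave 70 to 490 genes in all, 2 to 3 factors and 6 to 17 pathway genes past the FDR. The 490, the 3 and the 17 came from leaving out wild-type embryo 3. Counts fell to 73, 85 and 85 genes without wild-type embryos 1, 2 and 4, to 81 without knockout embryo 1, and to 70 genes and 6 pathway genes without knockout embryo 4. Fold changes ran from 0.78 to 1.56 for Tbx1, -0.09 to 0.22 for Tbx15 and -0.14 to 0.21 for Tbx18. The log2 ratio ran from -0.17 to 0.13 for Tbx5 to Tbx20 and from -0.18 to 0.18 for Tbx18 to Tbx15, and Tbx20 relative to heart muscle from -0.32 to 0.05. Counts of 0 to 19 per library limit Tbx4 and Tbx15.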
